A study of Homo sapiens with 8 samples.

Results

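The genes described here repair DNA double-strand breaks and interstrand crosslinks. They were 49 gene symbols of homologous recombination, the Fanconi anaemia pathway and end joining, and a probe set belonged to them when it was annotated to exactly 1 of these symbols. Of the 49 genes, 45 were measured, by 129 of the 49293 probe sets on the array, and the other 4 were not analysed here. All samples came from PANC1, a line of human pancreatic cancer cells grown in DMEM with serum, named in the methods as cosmic calf serum. The study describes the line as having already lost 1 copy of BAP1. Total RNA was hybridised to 8 Affymetrix PrimeView arrays, which fell into 4 groups of 2. The sgBAP1 + IR cells carried CRISPR/Cas9 targeting of BAP1 and received 10 Gy of ionising radiation (IR). The sgBAP1 cells were targeted and not irradiated. The IR cells had the wild-type genotype and received 10 Gy, and the control cells had the wild-type genotype and no irradiation. RNA of irradiated cells was taken 3 days after IR. The methods describe a single guide to BAP1, a control guide with no target in the same vector, and selection with puromycin after transfection. The labels give the IR and control cells only as wild type, and whether they carried that control guide is not stated. What transfection, selection or off-target cutting added to the differences was not tested.

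A double-strand break can be rejoined directly by non-homologous end joining, in which the Ku heterodimer binds the ends, DNA-dependent protein kinase holds them together and DNA ligase IV seals them. Alternatively, the MRE11-RAD50-NBN complex and the nuclease EXO1 resect the ends to single strands, BRCA1 acts with BARD1 and PALB2 to promote strand invasion, and the invading strand copies the sister chromatid before the joint molecules are dissolved or cut. Crosslinks that block replication forks are unhooked after the Fanconi anaemia core complex, with its E2 enzyme UBE2T, attaches ubiquitin to the FANCI-containing clamp. BAP1 is a nuclear deubiquitinase of histone H2A that was first found as a partner of BRCA1, and many recombination and Fanconi genes are transcribed mainly in cycling cells.

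The arrays resembled each other closely, with Pearson correlations across probe sets of 0.998 to 0.9985 within groups and 0.9881 to 0.9952 between groups. The median absolute difference between both arrays of a group over the 129 probe sets was 0.0614 to 0.0829 log2. Epithelial KRT8 (12.73 to 13.33 log2) and EPCAM (9.82 to 10.43) were well measured, as was VIM, a mesenchymal filament known from this line, and KRT7 was dimmer (5.83 to 7.5). Epithelial markers differed between groups: against control cells 4 of 5 rose in sgBAP1 + IR cells, 3 of 5 in sgBAP1 cells and 5 of 5 in IR cells. KRT19 rose by 1.23 ± 0.05, 0.36 ± 0.05 and 1.12 ± 0.05 and KRT7 by 1.56 ± 0.07, 0.56 ± 0.07 and 0.8 ± 0.07 in the same order of groups. Their part in the results below was not tested. Immune PTPRC (3.31 to 3.60 log2) and fibroblast LUM (2.71 to 3.12) lay under the 25th percentile of all probe sets, which was 4.299 to 4.339 on the control arrays. Fibroblast COL3A1 (3.71 to 4.26) did too, and immune CD14 (4.04 to 4.67) and fibroblast DCN (4.03 to 4.59) lay around it. Immune CSF1R (5.5 to 5.89) and CD3E (5.04 to 5.35) and fibroblast PDGFRB (5.88 to 6.09) lay above it. So did the endothelial markers (5.29 to 6.08) and the acinar markers (5.46 to 7.14). Fibroblast COL1A1 reached 8.29 log2 in control cells and was lower in the other groups. BAP1 transcripts were not analysed here, so the genotype labels were not checked against them. In what follows, levels are log2 RMA values and changes are log2 differences of group means ± SE from limma (n = 2 arrays per group). A probe set is said to have risen or fallen when its Benjamini-Hochberg adjusted p over all 49293 probe sets was under 0.05, and is called when its fold change was also over 1.5. For each gene the representative probe set was the one of highest mean level over the 8 arrays. With 2 arrays per group, separation of a pair of groups is common. In sgBAP1 + IR against control cells 31.3% of all 49293 probe sets lay lower without overlap and 34.3% higher. The labels do not state whether both arrays of a group were made from separate cultures, so p-values measure only the spread between these samples.

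Decreases of repair transcripts were most frequent in the cells that were both targeted and irradiated. In sgBAP1 + IR cells 14 of the 129 probe sets were called lower than in control cells (10.9%), against a background of 4.18% of all probe sets, and 0 were called higher, against a background of 3.01%. The called probe sets belonged to 10 genes: FAAP100, FANCC, FANCE, MRE11, PARP1, RAD54L, RMI1, RMI2, XRCC1 and XRCC5. Without the fold minimum, 55 probe sets fell (42.6%, background 18.1%) and 5 rose (3.88%, background 15.3%). By representative probe set, 27 of 45 genes fell and 2 rose, where 19.2% of all 18132 genes fell and 17.4% rose. Of the 45 changes 38 were below 0 and their median was -0.26, whereas the median of all 18132 genes was 0.03 and 43.9% were below 0.

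Each treatment alone moved fewer of them. In sgBAP1 cells 6 probe sets of 5 genes (FAAP100, FANCC, FANCF, RAD52 and XRCC5) were called lower than in control cells (4.65%, background 2.45%) and 0 were called higher (background 2.23%). Without the fold minimum 38 probe sets fell and 4 rose (29.5% and 3.1%, backgrounds 14.4% and 11.6%), and of the 45 genes 21 fell and 1 rose, with gene backgrounds of 16.0% and 11.9%. In IR cells 1 probe set, of FANCE, was called lower (0.775%, background 1.16%) and 0 higher (background 1.88%). There 16 probe sets fell and 4 rose (12.4% and 3.1%, backgrounds 9.04% and 8.31%), and 9 genes fell and 1 rose, with gene backgrounds of 10.6% and 9.22%. The median change of the 45 representative probe sets was -0.2 with sgBAP1 and -0.12 with IR. These 3 comparisons share the control arrays, so their counts are given side by side only. By limma no member was called higher in any of these comparisons, and leaving out single arrays gave 1 such call, of RAD52 11748832_a_at in sgBAP1 + IR cells without sgBAP1 + IR replicate 1 (0.59, adjusted p = 0.0475). The probe sets that rose belonged to LIG4, NBN, RAD51B, RAD51D and XRCC2 in sgBAP1 + IR cells, to LIG4, NBN and RAD51B in sgBAP1 cells, and to FANCL and NBN in IR cells.

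**Figure D1:**
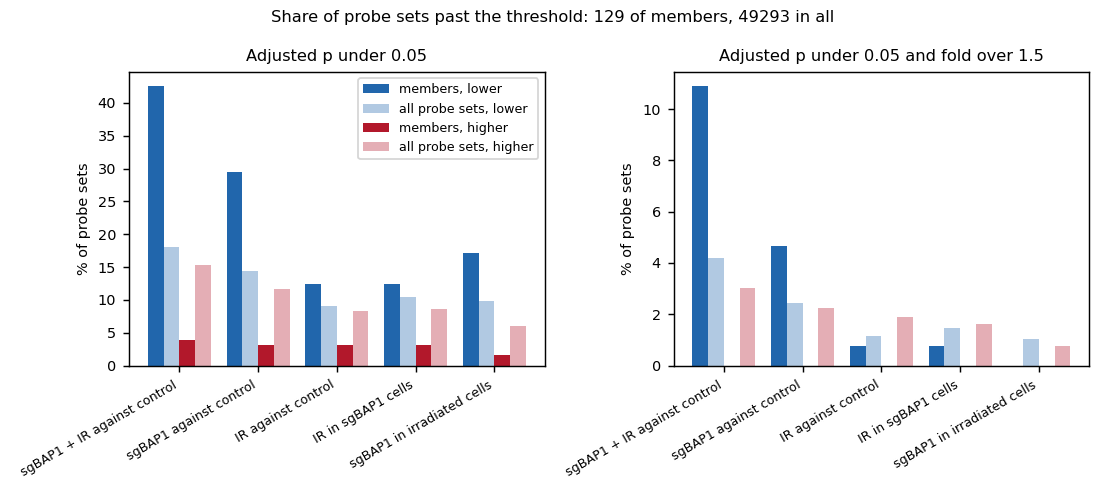
Percent of probe sets past the threshold (y axis) in 5 comparisons (x axis), for the 129 probe sets of repair genes (dark bars) and all 49293 probe sets (pale bars), lower in blue and higher in red. The left panel uses the adjusted p alone and the right panel adds a fold over 1.5. In sgBAP1 + IR cells against control cells 42.6% of the repair probe sets fell, against 18.1% of all probe sets.

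Promoters of called genes were read because these genes moved in the same direction. RefSeq windows on GRCh38.p14, 250 bases before to 50 bases after a transcription start, were at hand for 39 of the 45 genes (55 windows) and for 8 of the 10 genes called in sgBAP1 + IR cells (11 windows). The E2F words searched were TTCCCGC and also TTCGCGC and also TTGCCGC and also TTGGCGC, on either strand, forms of the core bound by the E2F factors that drive S phase transcription. Such a word stood in 26 of the 55 windows (47.3%) and in 8 of the 11 windows of called genes (72.7%), against 13.0% of all 35116 windows. These include non-coding genes and were not matched for base composition. Genes with several starts count more than once in these shares, and the windows of RAD54L overlap and hold the same E2F word. CCAAT, on either strand, stood in 41.8% of the windows against 34.6% of all, and the CHR words TTTGAA and TTCGAA, known from mitotic promoters, in 10.9% against 16.4%. Of the called genes, the windows of FANCC, FANCE, PARP1, RAD54L, RMI1 and XRCC1 held an E2F word and those of FAAP100 and MRE11 did not. Such a match is a description of letters, not evidence of binding. The 120 bases just before a start are printed for 4 genes with an E2F word there and for FAAP100, the gene with the largest decrease, 5′ to 3′ on the gene's strand, with E2F words and CCAAT words (or their reverse complements) in capitals.
FANCC (chr9:95317710-95317829, minus strand): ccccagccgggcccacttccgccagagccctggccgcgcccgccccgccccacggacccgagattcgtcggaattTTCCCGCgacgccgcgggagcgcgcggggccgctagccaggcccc
PARP1 (chr1:226408094-226408213, minus strand): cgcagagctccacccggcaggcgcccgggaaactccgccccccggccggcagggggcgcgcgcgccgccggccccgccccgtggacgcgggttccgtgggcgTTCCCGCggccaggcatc
RAD54L (chr1:46247568-46247687, plus strand): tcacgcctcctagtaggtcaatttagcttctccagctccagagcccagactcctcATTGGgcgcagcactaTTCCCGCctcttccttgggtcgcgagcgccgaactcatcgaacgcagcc
RMI1 (chr9:83980685-83980804, plus strand): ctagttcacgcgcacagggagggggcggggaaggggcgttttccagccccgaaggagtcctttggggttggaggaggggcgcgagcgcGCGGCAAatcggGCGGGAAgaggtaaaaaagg
FAAP100 (chr17:81552354-81552473, minus strand): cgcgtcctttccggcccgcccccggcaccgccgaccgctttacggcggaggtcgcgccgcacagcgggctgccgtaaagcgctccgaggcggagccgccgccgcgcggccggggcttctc

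By representative probe set, the largest decrease with sgBAP1 + IR and with sgBAP1 was that of the Fanconi anaemia gene FAAP100. In IR cells it was that of RMI1 (-0.42), outside this pathway. In sgBAP1 + IR cells 8 of 10 measured Fanconi anaemia genes fell, with a median of -0.41, and in sgBAP1 cells 7 fell (median -0.39). In IR cells 4 fell and FANCL, the E3 ligase of the core complex, rose by 0.22 ± 0.05 (median -0.14), as did its dimmer probe set 11761179_x_at, by 0.3 ± 0.07. FAAP100, which forms the catalytic module of the core complex with FANCB and FANCL, measured 9.04 and 8.95 log2 in sgBAP1 + IR cells, 8.76 and 8.85 in sgBAP1 cells, 9.6 and 9.56 in IR cells and 9.88 and 9.78 in control cells. No 2 groups overlapped, and the sgBAP1 cells without IR were the lowest. It fell by 0.84 ± 0.07 in sgBAP1 + IR cells (a 1.79-fold decrease, adjusted p = 0.000148) and by 0.25 ± 0.07 in IR cells (adjusted p = 0.0392), both against control cells. A second FAAP100 probe set, 11728268_a_at, had the same order, with 6.51 and 6.63 log2 in sgBAP1 + IR cells, 6.3 and 6.37 in sgBAP1 cells, 7 and 6.88 in IR cells and 7.47 and 7.28 in control cells. Both probe sets were called with sgBAP1 and with sgBAP1 + IR under each array left out in turn.

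FANCC, an adaptor of the core complex that binds FANCE and FANCF, measured 7.23 and 7.35 log2 in sgBAP1 + IR cells, 7.18 and 7.19 in sgBAP1 cells, 7.83 and 7.9 in IR cells and 8.12 and 7.94 in control cells. Both targeted groups lay below both wild-type groups. FANCC fell by 0.74 ± 0.08 in sgBAP1 + IR cells (adjusted p = 0.000478). Its 2 other probe sets changed by -0.14 ± 0.1 and -0.4 ± 0.14 without passing, and the mean over all 3 changed by -0.42, under the fold minimum. FANCF, the scaffold that joins FANCC and FANCE to the rest of the complex, measured 7.5 and 7.52 log2 in sgBAP1 + IR cells, 7.57 and 7.44 in sgBAP1 cells, 7.82 and 7.92 in IR cells and 7.88 and 7.95 in control cells. As with FANCC, only the targeted groups were low: the change was -0.41 ± 0.07 in both sgBAP1 + IR and sgBAP1 cells and -0.05 ± 0.07 in IR cells (adjusted p = 0.699). The dimmer FANCF probe set 11732175_s_at was called in sgBAP1 cells (-0.59 ± 0.08, adjusted p = 0.00215), and without control replicate 1 its change was -0.54 and it was no longer called.

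FANCE, which links the core complex to its ubiquitin substrate, behaved differently. Its representative probe set measured 7.03 and 7.1 log2 in sgBAP1 + IR cells, 7.37 and 7.31 in sgBAP1 cells, 7.07 and 7.07 in IR cells and 7.53 and 7.4 in control cells, so that both irradiated groups were low. It fell by 0.4 ± 0.06 in sgBAP1 + IR cells and by 0.4 ± 0.06 in IR cells (adjusted p = 0.00248 and 0.00573), and the change in sgBAP1 cells was -0.12 ± 0.06 (adjusted p = 0.195). The dimmest FANCE probe set, 11733337_at, was called in sgBAP1 + IR cells (-0.85 ± 0.13, adjusted p = 0.00218) and in IR cells (-0.61 ± 0.13, adjusted p = 0.0173). The call in IR cells was lost without control replicate 1 (-0.46), without IR replicate 1 (-0.55) and without IR replicate 2 (-0.67), and a call in sgBAP1 cells was gained without control replicate 2 (-0.67) or sgBAP1 replicate 2 (-0.63). Of the remaining pathway genes, FANCG, a core complex subunit, fell in all 3 comparisons with control (-0.57 ± 0.06 in sgBAP1 + IR, -0.44 ± 0.06 in sgBAP1 and -0.38 ± 0.06 in IR cells), as did UBE2T (-0.47 ± 0.05, -0.37 ± 0.05 and -0.32 ± 0.05, in the same order of groups). FANCI fell in sgBAP1 + IR cells (-0.33 ± 0.05) and in sgBAP1 cells (-0.47 ± 0.05), with -0.06 ± 0.05 in IR cells. FANCM, the translocase that brings the complex to DNA, fell with sgBAP1 + IR and with sgBAP1 (-0.41 ± 0.09 and -0.33 ± 0.09), and its partner FAAP24 stayed within 0.05 of control cells in each group without passing the test.

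**Figure D2:**
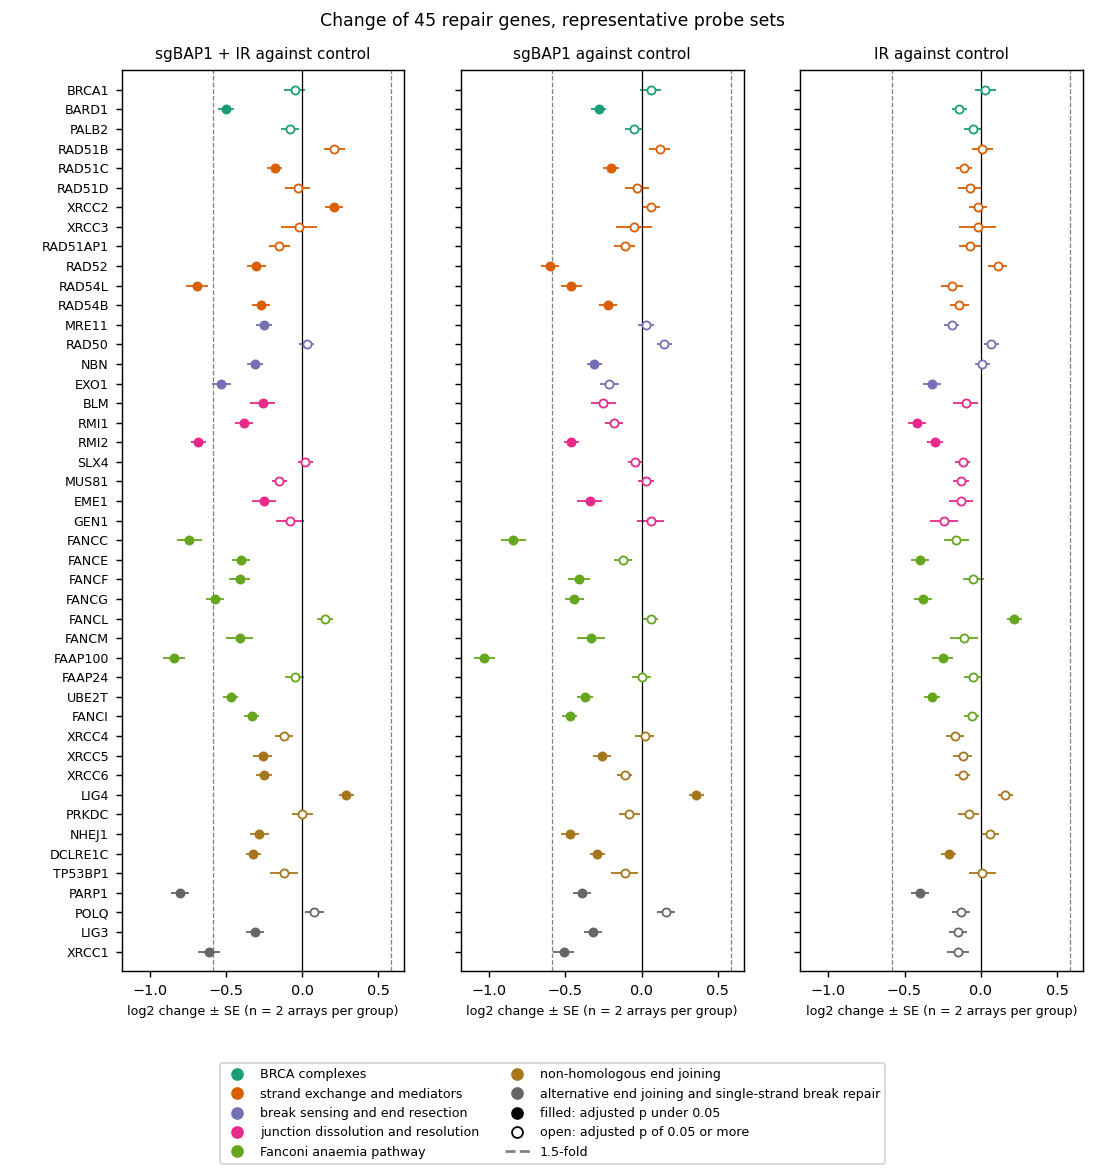
Log2 change ± SE against control cells (x axis, limma, n = 2 arrays per group) of the representative probe sets of 45 repair genes (y axis, coloured by role) in sgBAP1 + IR, sgBAP1 and IR cells. Filled points have an adjusted p under 0.05 and dashed lines mark 1.5-fold. Most points lie left of 0, with 27 filled decreases in sgBAP1 + IR cells, and FAAP100 reaches -1.03 in sgBAP1 cells.

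Genes of alternative end joining and single-strand break repair fell in 3 of 4 cases in sgBAP1 + IR cells (median -0.46) and in 3 of 4 in sgBAP1 cells (median -0.36), and in IR cells only PARP1 passed. PARP1, the poly(ADP-ribose) polymerase that binds DNA breaks, measured 9.07 and 9.07 log2 in sgBAP1 + IR cells, 9.49 and 9.48 in sgBAP1 cells, 9.52 and 9.42 in IR cells and 9.91 and 9.84 in control cells. The doubly treated cells were lowest, the control cells highest, and the groups with a single treatment lay between and overlapped each other. PARP1 fell by 0.8 ± 0.06 in sgBAP1 + IR cells, a 1.75-fold decrease (adjusted p = 0.000108), by 0.39 ± 0.06 in sgBAP1 cells (adjusted p = 0.00305) and by 0.4 ± 0.06 in IR cells (adjusted p = 0.00447). Its 3 other probe sets also fell in sgBAP1 + IR cells (-0.64 ± 0.07, -0.67 ± 0.05 and -0.43 ± 0.09), and the first and second of these were called. With sgBAP1 alone none of those 3 passed (-0.11 to -0.21).

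XRCC1, the scaffold that holds DNA ligase III at single-strand breaks, measured 7.04 and 6.85 log2 in sgBAP1 + IR cells, 7.05 and 7.04 in sgBAP1 cells, 7.4 and 7.39 in IR cells and 7.59 and 7.51 in control cells. Both targeted groups lay below both wild-type groups. XRCC1 fell by 0.61 ± 0.07 in sgBAP1 + IR cells (adjusted p = 0.000827) and by 0.51 ± 0.07 in sgBAP1 cells (adjusted p = 0.00249). The call in sgBAP1 + IR cells was lost without control replicate 1 (-0.57) and without sgBAP1 + IR replicate 2 (-0.51), and the mean of its 3 probe sets changed by -0.22. LIG3, the ligase itself, fell with sgBAP1 + IR and with sgBAP1 by its representative probe set (-0.31 ± 0.06 and -0.32 ± 0.06). Of its 7 dimmer probe sets, 11735658_a_at also fell in both (-0.53 ± 0.09 and -0.47 ± 0.09). The rest did not pass, with changes of -0.24 to 0.19 in sgBAP1 + IR cells. POLQ, the polymerase of microhomology-mediated joining, had a change of 0.08 ± 0.06 in sgBAP1 + IR cells and 0.16 ± 0.06 in sgBAP1 cells, neither of which passed.

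Among the genes that process joint molecules, 4 of 7 fell in sgBAP1 + IR cells (median -0.25), 2 in sgBAP1 cells and 2 in IR cells. RMI1 and RMI2 are the OB-fold partners of the BLM helicase in the dissolvasome. RMI2 measured 8.46 and 8.44 log2 in sgBAP1 + IR cells, 8.68 and 8.65 in sgBAP1 cells, 8.8 and 8.85 in IR cells and 9.13 and 9.12 in control cells. The groups did not overlap, and every treated group was below the control cells: RMI2 fell by 0.68 ± 0.05 (adjusted p = 0.000111) in sgBAP1 + IR cells, 0.46 ± 0.05 (adjusted p = 0.000812) in sgBAP1 cells and 0.3 ± 0.05 (adjusted p = 0.00726) in IR cells. RMI1 measured 9.23 and 9.18 log2 in sgBAP1 + IR cells, 9.45 and 9.34 in sgBAP1 cells, 9.2 and 9.12 in IR cells and 9.61 and 9.55 in control cells. Here the irradiated groups were lowest and overlapped (-0.38 ± 0.06 with sgBAP1 + IR and -0.42 ± 0.06 with IR, both passing), and the change in sgBAP1 cells was -0.18 ± 0.06 (adjusted p = 0.0677). The RMI1 probe set 11745202_a_at was called in sgBAP1 + IR cells (-0.61 ± 0.05, adjusted p = 0.000202), and this call was lost without sgBAP1 + IR replicate 2 (-0.58). BLM fell in sgBAP1 + IR cells (-0.26 ± 0.08, adjusted p = 0.0461), as did EME1, the partner of the MUS81 nuclease (-0.25 ± 0.08, adjusted p = 0.047). The nucleases MUS81 and GEN1 and the nuclease scaffold SLX4 changed by -0.15 ± 0.05, -0.08 ± 0.09 and 0.02 ± 0.05 there, without passing.

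Strand exchange factors and mediators were split. In sgBAP1 + IR cells 4 of 9 fell and XRCC2 rose (median -0.15), in sgBAP1 cells 4 fell (median -0.11), and in IR cells 0 of the 9 representative probe sets passed. Of all 34 probe sets of these genes 1 fell in IR cells, RAD51B 11737562_a_at by 0.51 ± 0.1 (adjusted p = 0.0163). There 5 of the 34 had an unadjusted p under 0.05 by limma, as did 14999 of all 49293 probe sets. RAD54L, a DNA translocase of homologous recombination, measured 7.76 and 7.89 log2 in sgBAP1 + IR cells, 8.11 and 8.02 in sgBAP1 cells, 8.37 and 8.29 in IR cells and 8.58 and 8.46 in control cells. The 4 groups did not overlap. RAD54L fell by 0.69 ± 0.07 in sgBAP1 + IR cells (adjusted p = 0.000493) and by 0.46 ± 0.07 in sgBAP1 cells (adjusted p = 0.00408), and its paralogue RAD54B fell by 0.27 ± 0.06 in sgBAP1 + IR cells. RAD52, a strand annealing protein, measured 6.83 and 6.73 log2 in sgBAP1 + IR cells, 6.42 and 6.54 in sgBAP1 cells, 7.19 and 7.19 in IR cells and 7.1 and 7.06 in control cells. It was lowest in the targeted cells without IR: RAD52 fell by 0.6 ± 0.06 in sgBAP1 cells (adjusted p = 0.000686) and by 0.3 ± 0.06 in sgBAP1 + IR cells (adjusted p = 0.00898). RAD52 has 12 probe sets, of which the second brightest also fell in sgBAP1 cells (-0.37 ± 0.06) and the 10 dimmer ones did not pass. Their mean changed by -0.01, and the call was lost without sgBAP1 replicate 1 (-0.55).

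**Figure D3:**
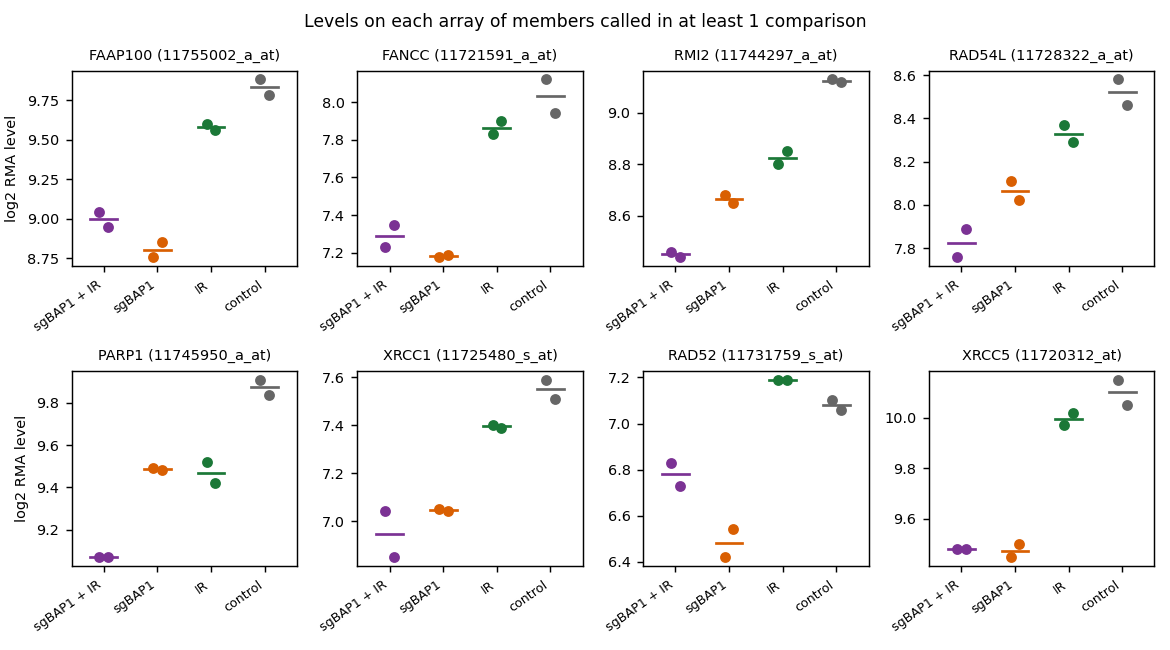
Log2 RMA level (y axis) of 8 probe sets on each of the 8 arrays, by group (x axis). Points are arrays and bars are group means, and each panel has its own y range, so levels are not to be compared between panels. FAAP100, FANCC, RMI2, RAD54L, XRCC1, RAD52 and XRCC5 separate targeted from wild-type cells, while PARP1 steps down with each treatment and reaches 9.07 on both sgBAP1 + IR arrays.

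The mediators RAD51C, RAD51D, XRCC2 and XRCC3, which act together in complexes during homologous recombination, changed by 0.21 or less by their representative probe sets. RAD51C fell by 0.18 ± 0.05 in sgBAP1 + IR cells and by 0.2 ± 0.05 in sgBAP1 cells, XRCC2 rose by 0.21 ± 0.06 in sgBAP1 + IR cells (adjusted p = 0.0351), and RAD51D and XRCC3 lay within 0.07 of control cells in every group by these probe sets. Dimmer RAD51D probe sets differed, since 11732399_a_at rose by 0.3 ± 0.09 in sgBAP1 + IR cells against control cells (adjusted p = 0.0388) and 11758494_s_at rose by 0.23 ± 0.06 after IR in sgBAP1 cells (adjusted p = 0.0292). RAD51AP1, a DNA-binding protein that promotes joint molecule formation, changed by -0.15 ± 0.07 in sgBAP1 + IR cells by its representative probe set (adjusted p = 0.116), although its probe set 11732192_a_at fell by 0.49 ± 0.05.

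Of the BRCA complex genes, only BARD1 fell by its representative probe set. BARD1, the obligate RING partner of BRCA1, measured 8.08 and 8.06 log2 in sgBAP1 + IR cells, 8.3 and 8.29 in sgBAP1 cells, 8.46 and 8.4 in IR cells and 8.57 and 8.57 in control cells. The groups did not overlap and the doubly treated cells were lowest. BARD1 fell by 0.5 ± 0.05 in sgBAP1 + IR cells (adjusted p = 0.000398), a 1.42-fold decrease, and by 0.28 ± 0.05 in sgBAP1 cells (adjusted p = 0.00697), and its change in IR cells was -0.14 ± 0.05 (adjusted p = 0.107). PALB2, a binding partner of BRCA1 in homologous recombination, measured 9.5 and 9.39 log2 in sgBAP1 + IR cells, 9.47 and 9.48 in sgBAP1 cells, 9.52 and 9.44 in IR cells and 9.55 and 9.5 in control cells. Its groups overlapped or nearly so, and the changes were -0.08 ± 0.06, -0.05 ± 0.06 and -0.05 ± 0.06, none of which passed. BRCA1 by its brightest probe set was at 8.62 and 8.75 log2 in sgBAP1 + IR cells, 8.84 and 8.74 in sgBAP1 cells, 8.8 and 8.72 in IR cells and 8.74 and 8.72 in control cells, with a change of -0.05 ± 0.07 in sgBAP1 + IR cells (adjusted p = 0.64). Of the 4 dimmer BRCA1 probe sets, 3 fell in sgBAP1 + IR cells (-0.2 ± 0.05, -0.23 ± 0.07 and -0.36 ± 0.09).

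In break sensing and end resection 3 of 4 genes fell in sgBAP1 + IR cells (median -0.28), 1 in sgBAP1 cells (median -0.09) and 1 in IR cells (median -0.09). EXO1 measured 7.27 and 7.18 log2 in sgBAP1 + IR cells, 7.53 and 7.56 in sgBAP1 cells, 7.45 and 7.41 in IR cells and 7.81 and 7.69 in control cells. EXO1 fell by 0.53 ± 0.06 in sgBAP1 + IR cells (adjusted p = 0.000916; without control replicate 2 the change was -0.59 and was called) and by 0.32 ± 0.06 in IR cells (adjusted p = 0.0158), with -0.21 ± 0.06 in sgBAP1 cells (adjusted p = 0.0534). MRE11, the nuclease that starts resection, measured 9.16 and 9.16 log2 in sgBAP1 + IR cells, 9.43 and 9.46 in sgBAP1 cells, 9.27 and 9.18 in IR cells and 9.42 and 9.41 in control cells. By this probe set only the irradiated groups were low, and the decrease passed in sgBAP1 + IR cells, where MRE11 fell by 0.25 ± 0.05 (adjusted p = 0.0096). Its dimmer probe sets 11750484_a_at and 11725792_a_at were called there (-0.6 ± 0.12 and -0.59 ± 0.09). They had different orders of groups: 11750484_a_at changed by 0.17 ± 0.12 in sgBAP1 cells and -0.31 ± 0.12 in IR cells, and 11725792_a_at by -0.28 ± 0.09 in sgBAP1 cells and -0.04 ± 0.09 in IR cells, none of which passed. For 11725792_a_at the decrease with sgBAP1 in irradiated cells passed (-0.55 ± 0.09, adjusted p = 0.00945), and 11725791_a_at changed by -0.31 ± 0.12 in both targeted groups and 0.01 ± 0.12 in IR cells, without passing. The call of 11750484_a_at was lost without control replicate 1 (-0.48) or sgBAP1 + IR replicate 1 (-0.48), and that of 11725792_a_at without control replicate 2 (-0.56) or sgBAP1 + IR replicate 2 (-0.58). RAD50, their partner, changed by 0.03 ± 0.05 in sgBAP1 + IR cells (adjusted p = 0.707).

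NBN, the third subunit, gave different answers by probe set. Its brightest probe set measured 9.78 and 9.84 log2 in sgBAP1 + IR cells, 9.84 and 9.77 in sgBAP1 cells, 10.12 and 10.13 in IR cells and 10.12 and 10.12 in control cells, a change of -0.31 ± 0.05 with each targeted group. The probe set 11755809_a_at also fell with sgBAP1 + IR (-0.53 ± 0.05) and with sgBAP1 (-0.44 ± 0.05). In contrast, 11720395_a_at rose with sgBAP1 + IR (0.23 ± 0.05), sgBAP1 (0.36 ± 0.05) and IR (0.29 ± 0.05), and 11720396_x_at rose with sgBAP1 (0.32 ± 0.07) and IR (0.26 ± 0.07). RAD51B likewise had 1 probe set that fell in sgBAP1 + IR, sgBAP1 and IR cells (-0.43 ± 0.1, -0.38 ± 0.1 and -0.51 ± 0.1) and another that rose in sgBAP1 + IR and sgBAP1 cells (0.33 ± 0.07 and 0.26 ± 0.07). Its representative probe set did not pass in sgBAP1 + IR cells (0.21 ± 0.07). Probe sets of a gene may read different transcript ends, and which transcripts they read was not tested.

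**Figure D4:**
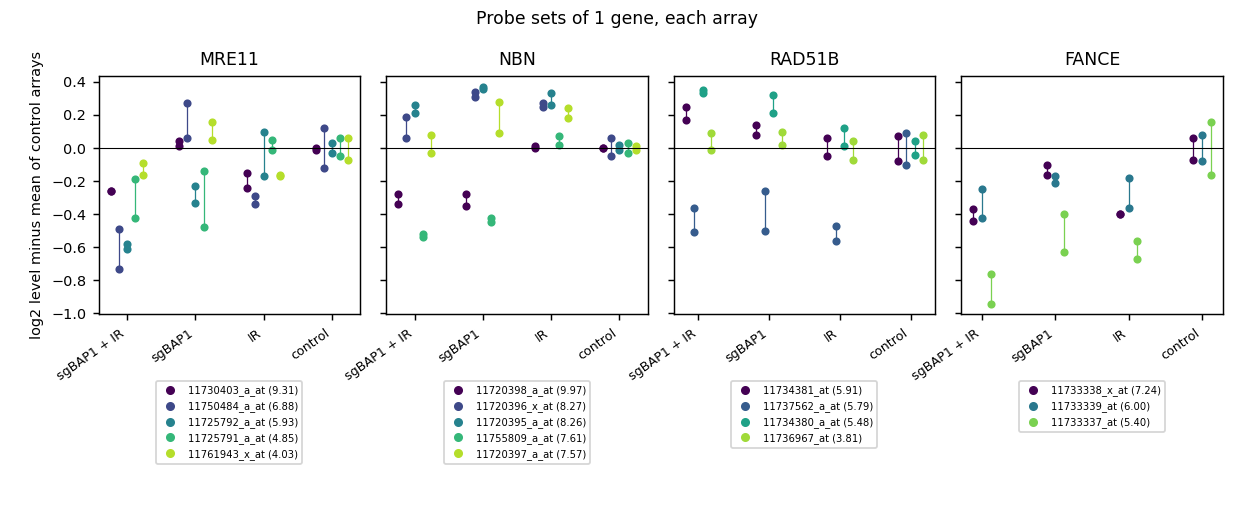
Log2 level on each array minus the mean of the control arrays (y axis) by group (x axis) for every probe set of MRE11, NBN, RAD51B and FANCE. Points are arrays joined within a group, and the mean over 8 arrays of each probe set is given in brackets. NBN and RAD51B have probe sets on both sides of 0 in sgBAP1 + IR cells, whereas those of MRE11 and FANCE lie below 0 there.

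Non-homologous end joining genes fell in 4 of 8 cases in sgBAP1 + IR cells (median -0.19) and 3 of 8 in sgBAP1 cells, and LIG4 rose in both. LIG4, the ligase that seals the ends, measured 7.92 and 7.9 log2 in sgBAP1 + IR cells, 7.98 and 7.98 in sgBAP1 cells, 7.78 and 7.79 in IR cells and 7.61 and 7.62 in control cells. Control cells were lowest and sgBAP1 cells highest. LIG4 rose by 0.29 ± 0.05 in sgBAP1 + IR cells (adjusted p = 0.0033) and 0.36 ± 0.05 in sgBAP1 cells (adjusted p = 0.00183). Its change in IR cells was 0.16 ± 0.05 (adjusted p = 0.0586). NHEJ1, the XRCC4-like factor that aligns the ends, measured 6.81 and 6.74 log2 in sgBAP1 + IR cells, 6.55 and 6.63 in sgBAP1 cells, 7.1 and 7.14 in IR cells and 7.04 and 7.07 in control cells. It fell by 0.28 ± 0.06 with sgBAP1 + IR and by 0.47 ± 0.06 with sgBAP1, and the change with IR was 0.06 ± 0.06 (adjusted p = 0.568). XRCC5 and XRCC6 encode the Ku subunits. The brightest XRCC5 probe set fell by 0.26 ± 0.06 in both targeted groups, while 11720312_at, with 9.48 and 9.48 log2 in sgBAP1 + IR cells, 9.45 and 9.5 in sgBAP1 cells, 9.97 and 10.02 in IR cells and 10.15 and 10.05 in control cells, was called in both (-0.62 ± 0.06 and -0.63 ± 0.06) and in neither without control replicate 1 (-0.56 and -0.57). XRCC6 fell by 0.25 ± 0.05 in sgBAP1 + IR cells, and the nuclease DCLRE1C (Artemis) fell in all 3 comparisons with control, by 0.32 ± 0.05, 0.29 ± 0.05 and 0.21 ± 0.05 in sgBAP1 + IR, sgBAP1 and IR cells. The kinase gene PRKDC, the ligase cofactor XRCC4 and the chromatin reader TP53BP1 did not pass in any of these comparisons by their representative probe sets. Of the 3 other PRKDC probe sets, 1 fell in sgBAP1 + IR cells and 1 in sgBAP1 cells. Of the 3 other XRCC4 probe sets, 1 fell in sgBAP1 + IR cells.

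The effect of each treatment was also taken on the background of the other. After IR in sgBAP1 cells (sgBAP1 + IR against sgBAP1), 1 of 129 probe sets was called lower (0.775%, background 1.46%), MRE11 11750484_a_at with -0.77 ± 0.12 (adjusted p = 0.0048), and 0 were called higher (background 1.63%). Without the fold minimum 16 fell and 4 rose (12.4% and 3.1%, backgrounds 10.4% and 8.55%). The genes that fell included PARP1 (-0.41 ± 0.06), EXO1 (-0.32 ± 0.06), MRE11 (-0.28 ± 0.05), FANCE (-0.28 ± 0.06), BARD1 (-0.23 ± 0.05) and RMI2 (-0.22 ± 0.05). RAD52 rose, by 0.3 ± 0.06 (adjusted p = 0.0165), and the 10 Fanconi genes had a median of -0.02, where FAAP100 changed by 0.19 ± 0.07 and FANCC by 0.1 ± 0.08, neither passing.

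With sgBAP1 in irradiated cells (sgBAP1 + IR against IR), limma called 0 of 129 probe sets in either direction (backgrounds 1.05% lower and 0.761% higher). An unadjusted p under 0.05 was reached by 48 of the 129, and by 15607 of all 49293 probe sets. The methods' t-test with Benjamini-Hochberg adjustment called 0 of all 49293 probe sets in this comparison, so its 0 for the members carries no information. Without the fold minimum 22 fell and 2 rose (17.1% and 1.55%, backgrounds 9.82% and 6.08%). FAAP100 fell by 0.58 ± 0.07, FANCC by 0.57 ± 0.08, RAD54L by 0.51 ± 0.07, XRCC1 by 0.45 ± 0.07, PARP1 by 0.4 ± 0.06 and BARD1 by 0.36 ± 0.05. Several of these stood close to 1.5-fold, so that single arrays decided the count, which was 1 without IR replicate 1 and 3 without IR replicate 2, and 1 and 2 without sgBAP1 + IR replicate 1 and 2. FAAP100 was called without IR replicate 2 (-0.61) or sgBAP1 + IR replicate 1 (-0.63), FANCC without IR replicate 1 (-0.61) or sgBAP1 + IR replicate 2 (-0.64), and MRE11 11725792_a_at without IR replicate 2 (-0.69).

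The interaction asks whether the IR effect differed between targeted and wild-type cells. By limma 0 of 129 probe sets passed the adjusted p in either direction (backgrounds 0.42% lower and 0.172% higher) and so 0 were called (backgrounds 0.333% lower and 0.11% higher). An unadjusted p under 0.05 was reached by 22 of the 129, and by 8076 of all 49293 probe sets. The lowest adjusted p was 0.0669, of FAAP100 11728268_a_at. For this probe set the interaction was 0.67 with a 95% interval of 0.39 to 0.96, and for the brighter FAAP100 probe set 0.44 with an interval of 0.23 to 0.66 (adjusted p = 0.0869). The first of these passed when dim probe sets were left out (adjusted p = 0.0287) or with an intensity trend and robust prior (adjusted p = 0.00153). For PARP1 the interaction was -0.01 (interval -0.21 to 0.18), for RAD54L -0.05 (-0.3 to 0.19) and for RMI2 0.08 (-0.08 to 0.25), so differences of these sizes between the IR effects were not detectable with 2 arrays per group. The NBN probe set 11720395_a_at, which rose with either treatment, had an interaction of -0.42 (interval -0.6 to -0.24, adjusted p = 0.069).

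**Figure D5:**
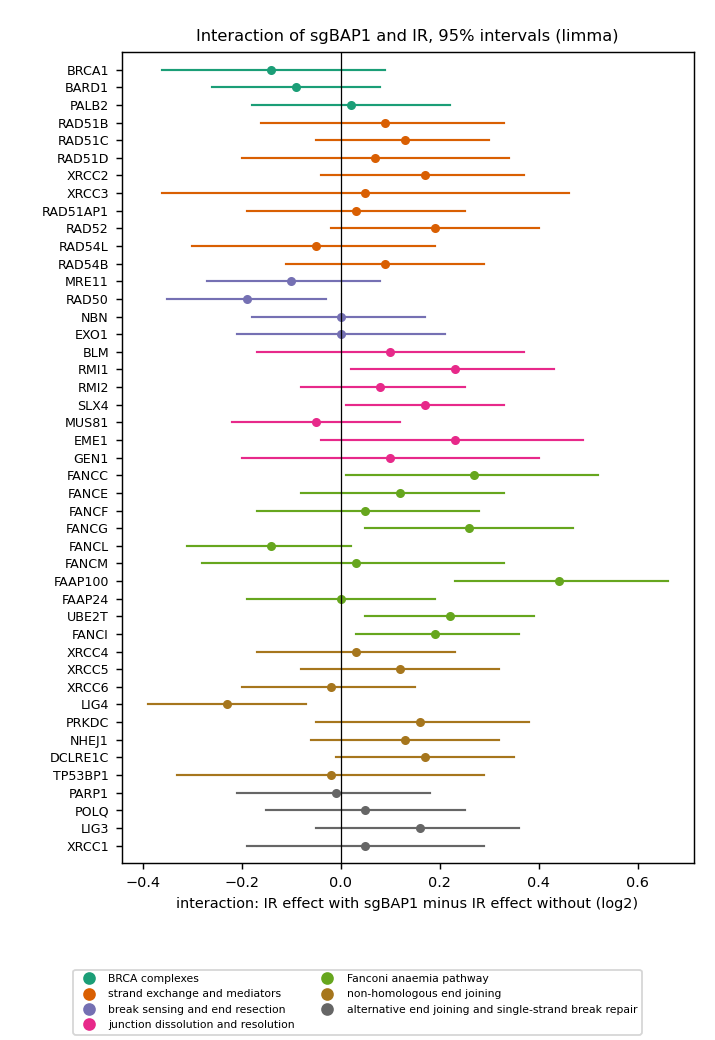
Interaction of sgBAP1 and IR (x axis, log2: IR effect in targeted cells minus IR effect in wild-type cells) with 95% intervals from limma (n = 2 arrays per group) for the representative probe sets of 45 repair genes (y axis, coloured by role). FAAP100 lies farthest from 0 at 0.44, PARP1 and EXO1 lie near 0, and none passed after adjustment.

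Further genes of the same pathways were counted from lists, to be read against the 19.2% of all genes that fell and the 17.4% that rose in sgBAP1 + IR cells. In sgBAP1 + IR cells 7 of 22 further homologous recombination and resection genes fell and 1 rose (median -0.16). Of the other lists, 11 of 16 further Fanconi and crosslink genes fell and 0 rose (median -0.22), and 8 of 17 further end joining and chromatin response genes fell and 2 rose (median -0.11). The crosslink nuclease DCLRE1A was the one called there (-0.94 ± 0.06), and it was also called with sgBAP1 (-0.62 ± 0.06), as were BABAM2, a subunit of the BRCA1-A complex (-0.81 ± 0.05), and the replicative ligase LIG1 (-0.61 ± 0.05).

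Many transcripts of proliferating cells fell as well. Of 25 S phase genes, such as the MCM helicase subunits, 19 fell in sgBAP1 + IR cells, 12 in sgBAP1 cells and 9 in IR cells (medians -0.35, -0.16 and -0.12). Not all moved down: 4 rose in sgBAP1 cells (CCNE1, CCNE2, CDC6 and GINS4), and CCNE1 also rose in sgBAP1 + IR and in IR cells. Their summed level was 15.14 to 15.16 log2 in sgBAP1 + IR cells, 15.29 in sgBAP1 cells, 15.37 in IR cells and 15.47 to 15.5 in control cells. Of 25 mitosis genes 20, 9 and 21 fell in the same order of groups (medians -0.32, -0.14 and -0.35), with summed levels of 15.27 to 15.29, 15.38 to 15.39, 15.24 and 15.52 to 15.56 log2 in sgBAP1 + IR, sgBAP1, IR and control cells. None of the mitosis genes rose in these comparisons. Of all genes 19.2% fell in sgBAP1 + IR cells, 16.0% in sgBAP1 cells and 10.6% in IR cells, and 17.4%, 11.9% and 9.22% rose. With sgBAP1 in irradiated cells 13 of the S phase genes fell and GINS4 rose (median -0.2). Of the mitosis genes 2 fell and MKI67 rose there (median 0.03). The part of proliferation in the levels of the repair genes was not tested, and in these bulk samples fewer cells in S phase and less RNA per cell cannot be told apart. On the chromosome, the called genes stood among 18 to 20 neighbouring genes each, whose median change in the same comparison lay between -0.17 and 0.12, for example -0.02 around PARP1 and 0.03 around FAAP100 in sgBAP1 + IR cells.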

How the data were processed

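PANC1 cells in 4 groups of 2 arrays were compared. The authors deposited log2 values made by RMA (background subtraction, quantile normalisation and summary of each probe set). No batch or date was given per the labels. The 102 control probe sets were left out of 49395, and the other 49293 were fitted with limma 3.58.1 in R 4.3.3 (lmFit, eBayes) as 4 group means over 8 arrays, with 4 residual degrees of freedom, 6 comparisons and no filter on signal. Gene symbols came from the platform annotation, and RefSeq tables on GRCh38.p14 gave promoters and gene order; the array design's genome build is not given in the sources used here, so no probe coordinates are printed. There is no read depth: the number of arrays limits the precision. The named genes were those with a called probe set, the 2 largest changes that passed in each role group, and the BRCA complex genes; other members are named to complete a group's count and were chosen after their values were seen. The members and lists were chosen with earlier results of these data known. Alternatives were a further quantile normalisation, median centring, a floor of 5 log2 on the mean, an intensity trend with robust prior, fits of the compared groups only, an unadjusted p under 0.01, no fold minimum, the methods' t-test, gene means over probe sets and leaving out each array. The code was tested on simulated data.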

Additional observations from a re-analysis of the deposited data

How the results depend on the processing

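None of the 22 calls of single probe sets reversed in any alternative run. Of these calls 13 held under every array left out, 5 were lost after a further quantile normalisation (all with adjusted p under 0.05 but under 1.5-fold) and 1 after median centring. The methods' t-test with Benjamini-Hochberg adjustment lost 20 of the 22, and the cause was not tested beyond its construction, which takes the spread from 2 groups of 2 arrays. Of all 49293 probe sets it called 72 lower and 78 higher in sgBAP1 + IR cells, 16 lower and 18 higher with sgBAP1, 2 lower for IR in sgBAP1 cells and 0 with IR or for sgBAP1 in irradiated cells, so its counts of 0 members carry no information in the last 3. The 2 it called were PARP1 11726249_a_at (adjusted p = 0.0447) and RMI2 (adjusted p = 0.0474), both in sgBAP1 + IR cells. The adjustment was added here, as the methods state p under 0.01 and a fold over 1.5 for this array and name no adjustment. At that threshold the t-test lost 9 of the 22 calls. Where 14 probe sets were called in sgBAP1 + IR cells, 60 passed with no fold minimum and 2 with the adjusted t-test. At the methods' own threshold, an unadjusted p under 0.01, the t-test called 8 (a run added after seeing the data). With the mean of probe sets per gene 4 genes were called. With sgBAP1 the 6 became 42 with no fold minimum, 0 with the methods' t-test and 1 with gene means. With IR the 1 became 20 with no fold minimum and 0 with the methods' t-test at either threshold and with gene means. For IR in sgBAP1 cells the 1 became 2 with median centring (PARP1 11726249_a_at at -0.59 was added), 20 with no fold minimum, and 0 with the methods' t-test at either threshold and with gene means. For sgBAP1 in irradiated cells the 0 became 24 with no fold minimum. For the interaction the 0 became 1, FAAP100 11728268_a_at, without dim probe sets, with an intensity trend and robust prior, and with an unadjusted p under 0.01. Leaving out single arrays gave 12 to 16 calls in sgBAP1 + IR cells, 4 to 7 with sgBAP1, 0 to 1 with IR, 1 to 1 for IR in sgBAP1 cells, 0 to 3 for sgBAP1 in irradiated cells and 0 to 0 for the interaction, where 0 of all 49293 probe sets were called with any array left out, so that this range says nothing of stability. All of these calls were lower except 1 of the 15 without sgBAP1 + IR replicate 1, RAD52 11748832_a_at in sgBAP1 + IR cells. No paired analysis was possible because no number in the titles links an array of one group to an array of another. Of the 129 probe sets 17 had a mean under 5 log2, where changes are compressed by background signal.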
